A study of Mus musculus with 18 samples.

Results

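The genes described here are those whose messenger RNA climbed at both steps of a short TNFα time course, from 0 h to 1 h and again from 1 h to 2 h, in mouse fibroblasts that carry wild-type or mutant RelA. A gene was taken when, in at least 2 of 3 cell lines, both 2 h libraries lay above both 1 h libraries and both 1 h libraries lay above both 0 h libraries, with at least 2 FPKM in both 2 h libraries of those lines. FPKM, fragments per kilobase of transcript and per-million mapped fragments, is the level of a message scaled for its length and for the depth of the library, and the FPKM of all assembled transcripts of a gene were added up. Of 23212 gene names 60 met this order. Names that begin with Ccl, Cxcl, Csf, Nfkb, Mmp, Col or Hist were left out beforehand, which removed Ccl2, Ccl7, Csf1 and Nfkbib. The genes were thus selected on their measured FPKM over time, so their changes over time are given as a description with no test, and "rose" said of them means only that a line met this order. Said of genes outside the set, it means a call by the test described with it. Levels of a mutant line against RelA(wt) did not enter the choice directly and were tested. A gene that met the order in only 1 of the 2 lines compared was chosen through its rise from 0 h to 2 h in that line. Its difference between those lines at 0 h, at 2 h or over the 3 times can therefore partly reflect the choice.

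All cells were immortalized rela-/- mouse embryonic fibroblasts, so the control cells lack endogenous RelA as well. They had been reconstituted from the retroviral vector pBABE-puro with mouse RelA(wt), with RelA(TA2), which carries L449A and F473A in the second transactivation domain, or with RelA(Ser276Ala), which carries S276A in the Rel homology region. Each line was taken unstimulated (0 h) and after 1 h and 2 h of 5 ng/ml TNFα, with 2 libraries for each of the 9 conditions, 18 in all. The study calls the 2 libraries independent replicates. The sources used here do not say whether a line is a clone or a pool, so a difference between lines also holds whatever else differs between 3 separately transduced cultures.

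TNFα binds its receptor on the cell surface and activates the IκB kinase, which leads to the breakdown of IκB proteins and frees dimers that contain RelA to enter the nucleus. There RelA binds κB sites and contacts the coactivators CBP and p300, through its second transactivation domain and through a contact that depends on phosphorylation of the serine changed in RelA(Ser276Ala). The study found CBP and p300 on the target promoters it examined before TNFα, and proposes that they help to bring RelA there. The early wave of TNFα target genes holds the inhibitors of the pathway, among them IκBα and A20, while other messages accumulate more slowly because they are made later, are longer or are more stable. A steady climb over 2 h is therefore a shape shared by genes of many kinds.

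Libraries held an estimated 25300000 to 31300000 mapped fragments and 23263 to 25727 assembled transcripts. Rela itself was at 155.6 to 187.3 FPKM in the RelA(wt) libraries, at 314.9 to 366.4 FPKM in RelA(TA2) and at 173.7 to 211.5 FPKM in RelA(Ser276Ala), a reading that counts any RelA message and so does not check the mutations. It does not measure protein either. The study reports clearly less RelA protein in RelA(Ser276Ala) cells than in RelA(wt) cells. The lines were thus not matched in RelA protein, and what this does to the levels below was not tested. All 10 fibroblast markers examined were at 1 FPKM or above in every library, with a summed level of 3852 to 5327 FPKM. The macrophage markers Ptprc, Emr1 and Itgam, the endothelial markers Pecam1 and Tek and the epithelial markers Epcam, Cdh1, Krt18 and Krt14 were listed at 0 in all libraries, and the summed levels of these lists stayed at or below 29.0, 12.3 and 26.0 FPKM. The muscle list (1.7 to 4.8 FPKM, Myod1 and Myog at 0) and the nerve list (5.4 to 17.8 FPKM, Map2 and Rbfox3 at 0) were as low. Some markers of these lists were at 1 FPKM or above in every library. They were 2 of 6 macrophage, 1 of 4 endothelial, 1 of 5 epithelial, 1 of 3 muscle and 1 of 3 nerve markers.

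The RefSeq promoter table (GRCm38.p6, 250 bases before to 50 bases after each start) held a window for 47 of the 60 genes. The κB consensus was found on either strand in 10 of these 47 windows (21.3%), against 5.1% of the windows of 9746 genes tested and 4.3% of all 27025 windows. The windows of the set had a median GC content of 64.3%, against 61.0% over the genes tested, and the consensus is rich in G and C at its ends. The serum response factor (CArG) box was found in 2 windows, those of Fermt2 and Vcl (4.3%, against 1.3% of genes tested), and the AP-1 letters TGANTCA in 5 (10.6% against 5.0%). The hypoxia response letters ACGTG stood in 10 windows (21.3% against 25.9%), the metal response letters TGCNCNC in 31 (66.0% against 60.2%) and the TATA letters TATAAA in 4 (8.5% against 6.9%). These matches describe letters only. The stretches below show the match of 6 genes that the results return to, on the strand of the gene, with the matched bases in capitals. The match begins 57 bases before the start in Tnip1, 10 in Traf3, 182 in Fosl2, 118 in Vegfa and 143 in Loxl4 (all κB), and 227 bases before the start in Vcl (CArG).
Tnip1, chr11:54962963-54963022, minus strand: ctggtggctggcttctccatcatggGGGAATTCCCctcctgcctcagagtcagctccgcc
Traf3, chr12:111166335-111166394, plus strand: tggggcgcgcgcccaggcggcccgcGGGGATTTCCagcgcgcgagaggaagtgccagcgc
Fosl2, chr5:32136265-32136324, plus strand: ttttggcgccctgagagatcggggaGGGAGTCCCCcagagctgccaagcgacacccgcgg
Vegfa, chr17:46032461-46032520, minus strand: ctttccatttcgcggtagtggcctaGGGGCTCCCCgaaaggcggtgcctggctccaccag
Loxl4, chr19:42612915-42612974, minus strand: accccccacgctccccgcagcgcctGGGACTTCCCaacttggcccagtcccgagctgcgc
Vcl, chr14:20929148-20929205, plus strand: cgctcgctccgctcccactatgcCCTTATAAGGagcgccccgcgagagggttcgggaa

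The full order was met by 42 of the 60 genes in RelA(wt) cells and by 44 in each of the mutant lines. Over all genes with at least 2 FPKM in both 2 h libraries of a line the order was met by 1.94% (RelA(wt)), 2.06% (RelA(TA2)) and 1.55% (RelA(Ser276Ala)), and since the order chose the set nothing is read from the comparison. Only 10 genes met it in all 3 lines: Angptl4, Fam107b, Fosl2, Lox, Nhsl1, Nr4a2, Obfc2a (now Nabp1), Vegfa, Zbtb2 and Zxdb. The set failed the order in 1 line otherwise, in RelA(wt) for 18 genes, in RelA(TA2) for 16 and in RelA(Ser276Ala) for 16. Levels at 2 h ran widely, with the highest medians for Tnfrsf12a (347 FPKM), Zyx (328.5 FPKM), Mt2 (282 FPKM), Wdr92 (210.0 FPKM) and Actr3 (176 FPKM).

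Angptl4, a secreted inhibitor of lipoprotein lipase, rose in all 3 lines, mostly in the second hour. Angptl4 in RelA(wt) cells was at 6.04 and 6.37 FPKM at 0 h, 7.08 and 7.08 FPKM at 1 h and 13.2 and 16.1 FPKM at 2 h. Angptl4 in RelA(TA2) cells went from 3.77 and 3.18, then 9.46 and 7.75 and then 23.9 and 22.8 FPKM at the same times. Angptl4 in RelA(Ser276Ala) cells gave 4.18 and 4.16, then 5.25 and 5.83 and then 19.3 and 14.9 FPKM. The 3 lines thus ended at a ratio of 2 h to 0 h of 2.36-fold, 6.70-fold and 4.09-fold, and the RelA(TA2) libraries were the lowest before TNFα and the highest after 2 h. Set against RelA(wt) by limma, the RelA(TA2) line had a log2 difference in Angptl4 of -0.76 ± 0.15 (SE, adjusted p = 0.0233) before TNFα. After 2 h this had turned to 0.66 ± 0.15 (SE, adjusted p = 0.0461). Neither call was firm. The 0 h call was lost without either RelA(wt) library or the second RelA(TA2) library of that time (lowest and highest value on leaving out 1 library, -0.86 and -0.65), and the 2 h call without any 1 of 14 of the 18 libraries (0.52 to 0.79).

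Vegfa, the main growth factor for blood vessels, climbed by similar ratios in the 3 lines. Vegfa in RelA(wt) cells was at 15.98 and 14.96 FPKM at 0 h, 17.1 and 18.3 FPKM at 1 h and 27.2 and 28.97 FPKM at 2 h. Vegfa in RelA(TA2) cells was at 12.9 and 17.4, then 19.7 and 20.04 and then 23.8 and 27.1 FPKM. Vegfa in RelA(Ser276Ala) cells was at 17.4 and 17.5, then 19.2 and 23.6 and then 34.5 and 28.2 FPKM. Ratios of 2 h to 0 h were 1.81-fold, 1.68-fold and 1.79-fold. At 2 h both RelA(TA2) libraries lay just below the RelA(wt) pair, and the RelA(Ser276Ala) pair overlapped it. Neither mutant line passed the test against RelA(wt) for Vegfa at 2 h, the log2 difference being -0.14 ± 0.15 (SE, adjusted p = 0.735) in RelA(TA2) and, for RelA(Ser276Ala), 0.15 ± 0.15 (SE, adjusted p = 0.694).

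Lox, lysyl oxidase, which cross-links collagen and elastin, kept its order between lines at every time. Lox in RelA(wt) cells was at 33.98 and 31.03 FPKM at 0 h, 45.01 and 45.5 FPKM at 1 h and 55.7 and 53.6 FPKM at 2 h. Lox in RelA(TA2) cells stood at 66.8 and 58.3, then 82.5 and 79.2 and then 92.8 and 90.3 FPKM, above RelA(wt) in every library. Lox in RelA(Ser276Ala) cells stood at 24.1 and 21.8, then 27.2 and 31.6 and then 36.05 and 36.1 FPKM, below RelA(wt) in every library of the same time. The climb itself was modest and similar, 1.68-fold, 1.46-fold and 1.57-fold. Over the 3 times Lox was higher in RelA(TA2), with a log2 difference of 0.83 ± 0.06 (SE, adjusted p = 6.79e-06), and lower in RelA(Ser276Ala), with -0.57 ± 0.06 (SE, adjusted p = 0.000118). The RelA(Ser276Ala) call was lost when only the highest assembled transcript of each gene was counted. Loxl4, a relative of Lox with the κB match printed above, moved little, with ratios of 1.18-fold, 1.12-fold and 1.20-fold, and met the order in RelA(wt) and RelA(Ser276Ala).

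The transcription factors of the set are Fosl2, Nr4a2, Maff, Id2, Id3, Dlx1, Zbtb2, Zxdb, Relb and Bbx. Fosl2, a Fos family partner of Jun in AP-1, was at 17.8 and 17.2 FPKM at 0 h, 25.5 and 24.3 FPKM at 1 h and 45.6 and 46.96 FPKM at 2 h in RelA(wt) cells. Fosl2 in the other two lines was at 17.4 and 17.8, then 33.8 and 29.1 and then 41.8 and 47.5 FPKM with RelA(TA2) and at 19.7 and 18.01, then 26.4 and 32.4 and then 46.9 and 39.98 FPKM with RelA(Ser276Ala). At 0 h the RelA(wt) and RelA(TA2) libraries overlapped and both RelA(Ser276Ala) libraries lay just above them, at 2 h all 3 ranges overlapped, and no difference between lines passed the test at 0 h or 2 h. The 2 h log2 differences from RelA(wt) were -0.05 ± 0.12 (SE, adjusted p = 0.927) in RelA(TA2) and -0.09 ± 0.12 (SE, adjusted p = 0.78) in RelA(Ser276Ala).

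Nr4a2, an orphan nuclear receptor of the immediate-early family, separated the lines. Nr4a2 in RelA(wt) cells was at 9.69 and 8.67 FPKM at 0 h, 10.2 and 10.3 FPKM at 1 h and 24.1 and 25.7 FPKM at 2 h, so most of its climb came in the second hour. Nr4a2 in RelA(TA2) cells was at 10.2 and 11.99, then 15.6 and 15.9 and then 28.4 and 32.9 FPKM, and in RelA(Ser276Ala) cells at 5.95 and 6.14, then 6.72 and 6.56 and then 10.7 and 13.9 FPKM. All RelA(Ser276Ala) libraries lay below every RelA(wt) library of their time. At 2 h the RelA(Ser276Ala) line was lower by a log2 difference of -0.997 ± 0.13 (SE, adjusted p = 0.00263), a call that held when any 1 of the 18 libraries was left out and under each of the other settings tried.

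Id2 and Id3 block basic helix-loop-helix factors by pairing with them without binding DNA. Id2 in RelA(TA2) cells was at 9.55 and 6.82 FPKM at 0 h, 17.99 and 19.3 FPKM at 1 h and 43.6 and 45.8 FPKM at 2 h, and in RelA(Ser276Ala) cells at 19.9 and 17.1, then 25.8 and 37.5 and then 82.03 and 75.4 FPKM. Id2 in RelA(wt) cells did not meet the order, since its libraries gave 43.8 and 19.6, then 20.6 and 19.1 and then 88.3 and 108 FPKM. The first RelA(wt) library at 0 h stands apart in FPKM, while the fragments recovered for Id2, as FPM (fragments-per-million fragments in genes), were 21.3 and 23.5 in those 2 libraries. Id3 reached 116 and 133 FPKM in RelA(wt), 89.1 and 113 FPKM in RelA(TA2) and 130.5 and 67.9 FPKM in RelA(Ser276Ala) at 2 h, from 33.3 and 29.97, 15.8 and 11.7 and 19.3 and 17.02 FPKM at 0 h. At 0 h the log2 difference of RelA(TA2) from RelA(wt) was -1.80 ± 0.31 (SE, adjusted p = 0.0105) for Id2 and -1.19 ± 0.26 (SE, adjusted p = 0.0327) for Id3. The Id2 call was lost without the second RelA(TA2) library at 0 h, where the difference was -1.57, and the Id3 call without any 1 of 7 libraries (-1.39 to -0.98). For Id2 recovered fragments gave -1.21 ± 0.17 (SE, adjusted p = 0.000494). Since Id2 met the order in RelA(TA2) but not in RelA(wt), its 0 h difference can partly reflect the choice of genes.

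Of the NF-κB pathway and TNF receptor list 4 genes belong to the set, Relb, Tnip1, Traf3 and Ripk2. Relb, the NF-κB subunit that pairs with p52 in the alternative pathway, was at 6.82 and 6.88 FPKM at 0 h, 12.1 and 11.9 FPKM at 1 h and 21.96 and 22.7 FPKM at 2 h in RelA(wt) cells. Relb in RelA(TA2) cells was at 6.83 and 7.57, then 12.5 and 14.6 and then 30.7 and 31.1 FPKM. Relb in RelA(Ser276Ala) cells was at 6.72 and 6.63, then 3.49 and 11.5 and then 22.7 and 23.9 FPKM, where the first 1 h library alone broke the order. In FPM that library and its partner gave 24.7 and 25.5. Ratios of 2 h to 0 h were 3.26-fold, 4.29-fold and 3.50-fold, and none of the 6 comparisons between lines passed the test for Relb in FPKM, the 2 h differences being 0.46 ± 0.36 (SE, adjusted p = 0.607) and 0.06 ± 0.36 (SE, adjusted p = 0.991). In recovered fragments Relb was higher in RelA(TA2) over the 3 times, with 0.29 ± 0.08 (SE, adjusted p = 0.00924).

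Ripk2, the kinase that carries signals from NOD receptors to NF-κB, climbed in RelA(wt) and RelA(TA2) cells. Ripk2 in RelA(wt) cells was at 5.03 and 4.77 FPKM at 0 h, 5.74 and 6.005 FPKM at 1 h and 19.3 and 16.9 FPKM at 2 h. Ripk2 in RelA(TA2) cells was at 5.98 and 7.21, then 8.14 and 7.25 and then 16.5 and 13.99 FPKM. Ripk2 in RelA(Ser276Ala) cells stayed at 4.32 and 3.85, then 5.10 and 5.72 and then 5.29 and 5.73 FPKM, and its 1 h and 2 h libraries overlapped. The 2 h level differed between RelA(Ser276Ala) and RelA(wt) by -1.63 ± 0.14 (SE, adjusted p = 0.000184) on the log2 scale, and before TNFα by -0.24 ± 0.14 (SE, adjusted p = 0.511), which did not pass. Recovered fragments gave -1.69 ± 0.09 (SE, adjusted p = 5.67e-07) for the same 2 h difference. Ripk2 entered the set through RelA(wt) and RelA(TA2), so its lower 2 h level in RelA(Ser276Ala) can partly reflect the choice of genes.

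Tnip1 encodes a ubiquitin-binding partner of A20, and its promoter window carries the κB match printed above. Tnip1 in RelA(wt) cells was at 14.02 and 15.1 FPKM at 0 h, 16.6 and 16.9 FPKM at 1 h and 31.7 and 30.6 FPKM at 2 h. Tnip1 in RelA(TA2) cells was at 15.3 and 15.8, then 17.7 and 30.9 and then 29.8 and 29.2 FPKM, with 1 of its 1 h libraries at the 2 h level in FPKM only, since the FPM were 49.05 and 42.8 at 1 h and 82.7 and 85.97 at 2 h. Tnip1 in RelA(Ser276Ala) cells met the order within a narrow range, 11.7 and 12.1, then 13.1 and 12.3 and then 14.5 and 15.1 FPKM. The log2 difference of RelA(Ser276Ala) from RelA(wt) was -1.05 ± 0.19 (SE, adjusted p = 0.0131) at 2 h and -0.57 ± 0.11 (SE, adjusted p = 0.00627) over the 3 times. The 2 h call was lost without either RelA(wt) library or the first RelA(Ser276Ala) library of that time (-1.07 to -1.02). Both calls were lost when only the highest assembled transcript of each gene was counted. Traf3, an adaptor that restrains the alternative NF-κB pathway, moved far less, by ratios of 1.34-fold, 1.36-fold and 1.42-fold, from 4.08 and 3.98 to 5.30 and 5.49 FPKM in RelA(wt) cells.

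Receptors of the TNF receptor superfamily in the set are Fas and Tnfrsf12a. Fas, the death receptor for Fas ligand, was at 4.54 and 4.07 FPKM at 0 h, 6.66 and 6.67 FPKM at 1 h and 12.97 and 12.9 FPKM at 2 h in RelA(wt) cells. Fas in RelA(TA2) cells was at 4.59 and 5.77, then 5.58 and 5.57 and then 15.97 and 13.9 FPKM, the 1 h pair overlapping the 0 h pair. Fas in RelA(Ser276Ala) cells was at 3.10 and 3.34, then 3.81 and 4.42 and then 5.31 and 7.26 FPKM. At 2 h the log2 difference of RelA(Ser276Ala) from RelA(wt) was -1.003 ± 0.16 (SE, adjusted p = 0.00867) for Fas, and that of RelA(TA2) was 0.20 ± 0.16 (SE, adjusted p = 0.624). The RelA(Ser276Ala) call was kept without each library in turn and lost when only the highest assembled transcript was counted. Tnfrsf12a, the receptor for TWEAK, had the highest median level of the set at 2 h and went from 257 and 256 FPKM to 331 and 334 FPKM in RelA(wt) cells, a ratio of 1.29-fold. It shares its locus with Hcfc1r1 on the other strand.

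Mt2, a metallothionein that binds zinc and copper, reached its highest level in RelA(TA2) cells. Mt2 in RelA(TA2) cells was at 68.3 and 82.6 FPKM at 0 h, 147 and 165 FPKM at 1 h and 537 and 535 FPKM at 2 h. Mt2 in RelA(wt) cells was at 80.8 and 111, then 98.98 and 80.8 and then 221 and 252 FPKM, the 0 h and 1 h pairs overlapping. That overlap was in FPKM only, since the FPM were 26.83 and 23.81 at 0 h, 36.5 and 31.48 at 1 h and 94.85 and 94.98 at 2 h. Mt2 in RelA(Ser276Ala) cells was at 142 and 123, then 162 and 173 and then 292 and 272 FPKM. At 2 h Mt2 was higher in RelA(TA2) than in RelA(wt) by a log2 difference of 1.18 ± 0.16 (SE, adjusted p = 0.00341), a call that held under every setting tried. Mt2 met the order in RelA(TA2) but not in RelA(wt), so this difference can partly reflect the choice of genes. Reads shared with other metallothionein genes may have been split between copies.

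Of the metabolic and transport list the set holds Hk2, Odc1 and Gch1. Hk2, hexokinase 2, which traps glucose as its phosphate, was at 9.02 and 8.54 FPKM at 0 h, 10.6 and 9.54 FPKM at 1 h and 20.1 and 23.99 FPKM at 2 h in RelA(wt) cells. Hk2 in RelA(TA2) cells was at 7.17 and 8.04, then 16.5 and 14.01 and then 23.5 and 27.2 FPKM, and in RelA(Ser276Ala) cells at 10.4 and 10.3, then 9.11 and 9.68 and then 15.6 and 12.6 FPKM, with its 1 h pair below its 0 h pair. The 2 h log2 difference of RelA(Ser276Ala) from RelA(wt) was -0.63 ± 0.14 (SE, adjusted p = 0.0349), a call lost without any 1 of 6 libraries (-0.78 to -0.48). Hk2 met the order in RelA(wt) but not in RelA(Ser276Ala), so this difference can partly reflect the choice of genes. Odc1, the first enzyme of polyamine synthesis, went from 119.5 and 109.7 to 152 and 169 FPKM in RelA(wt), from 111 and 80.5 to 162 and 161 FPKM in RelA(TA2) and from 133 and 116 to 167 and 145 FPKM in RelA(Ser276Ala). Gch1, which makes the tetrahydrobiopterin precursor used by nitric oxide synthases, went from 4.64 and 4.96 to 7.58 and 8.10 FPKM in RelA(wt) and from 4.25 and 4.97 to 7.10 and 7.999 FPKM in RelA(TA2), and its 0 h and 2 h pairs in RelA(Ser276Ala) cells were 4.58 and 5.03 and 5.09 and 4.25 FPKM. Slc2a6, a sugar transporter of the GLUT family outside that list, reached a ratio of 3.28-fold in RelA(TA2).

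Of the actin and SRF list the set holds Zyx, Vcl, Flna and Csrp1. Zyx, zyxin, was at 219 and 247 FPKM at 0 h, 272 and 259 FPKM at 1 h and 308 and 312 FPKM at 2 h in RelA(wt) cells. Vcl, vinculin, whose window holds the CArG box printed above, was at 67.1 and 65.9 FPKM at 0 h, 70.7 and 67.4 FPKM at 1 h and 89.5 and 85.9 FPKM at 2 h in the same cells. Flna, the actin cross-linker filamin A, went only from 116 and 119.8 to 129 and 131 FPKM there, a ratio of 1.10-fold. Csrp1, a LIM protein of the actin bundle, went from 63.3 and 61.6 to 103 and 98.8 FPKM in RelA(wt) and from 80.5 and 89.6 to 139 and 132 FPKM in RelA(TA2), and over the 3 times was higher in RelA(TA2) by 0.46 ± 0.06 (SE, adjusted p = 0.000435) on the log2 scale. Actr3 (a subunit of the Arp2/3 complex), Fermt2 (kindlin-2, an integrin activator) and Akap12 (a scaffold for protein kinase A) belong with them by function. Ratios of 2 h to 0 h in RelA(TA2) were 1.77-fold for Akap12, 2.28-fold for Fermt2 and 1.15-fold for Actr3. The Fermt2 ratio rests on 2 h libraries of 44.98 and 88.81 FPKM, and its ratio in FPM was 1.47-fold (150.3 and 137.4 at 2 h). Akap12 was higher in RelA(TA2) over the 3 times by 0.48 ± 0.05 (SE, adjusted p = 0.000204). Akap12 did not meet the order in RelA(wt), so its difference can partly reflect the choice of genes.

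Timp3, an inhibitor of matrix metalloproteases, and Nrg1, a ligand of ErbB receptors, both met the order in RelA(wt) and RelA(Ser276Ala) cells but not in RelA(TA2). Timp3 was at 56.5 and 56.9 FPKM at 0 h, 70.4 and 72.2 FPKM at 1 h and 93.7 and 88.8 FPKM at 2 h in RelA(wt) cells. In RelA(TA2) cells Timp3 was already at 80.04 and 97.5 FPKM at 0 h and ended at 94.1 and 87.6 FPKM. At 0 h its log2 difference from RelA(wt) was 0.64 ± 0.13 (SE, adjusted p = 0.0239), a call lost without either RelA(wt) library or the second RelA(TA2) library of that time (0.49 to 0.78). Since Timp3 met the order in RelA(wt) but not in RelA(TA2), this 0 h difference can partly reflect the choice of genes. Timp3 overlaps Syn3 on the other strand, and without strand in the counting the reads of overlapping genes cannot be told apart.

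Sprr1a, a small proline-rich protein of the cornified envelope, had lower levels in both mutant lines than in RelA(wt). Sprr1a in RelA(wt) cells was at 19.8 and 17.7 FPKM at 0 h, 23.02 and 23.2 FPKM at 1 h and 30.7 and 29.4 FPKM at 2 h. Sprr1a in RelA(TA2) cells was at 9.58 and 9.82, then 12.5 and 9.40 and then 12.6 and 13.7 FPKM, and in RelA(Ser276Ala) cells at 8.39 and 9.25, then 13.3 and 13.4 and then 20.6 and 16.5 FPKM. Every library of either mutant line lay below every RelA(wt) library of its time. Over the 3 times the log2 difference from RelA(wt) was -1.04 ± 0.08 (SE, adjusted p = 1.97e-05) in RelA(TA2) and -0.83 ± 0.08 (SE, adjusted p = 0.000118) in RelA(Ser276Ala). Sprr1a met the order in RelA(wt) but not in RelA(TA2), so its RelA(TA2) difference can partly reflect the choice of genes. Reads shared with other Sprr genes may have been split. Crct1, another gene of the cornified envelope locus, gave no call against RelA(wt) in FPKM, but in recovered fragments differed in RelA(TA2) by -1.03 ± 0.27 (SE, adjusted p = 0.0185) at 0 h, and ended at 51.5 and 53.2 FPKM in RelA(wt), 41.05 and 39.6 FPKM in RelA(TA2) and 61.7 and 34.4 FPKM in RelA(Ser276Ala).

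Fam107b rose in all 3 lines and was lower in both mutant lines. Fam107b in RelA(wt) cells was at 22.4 and 21.3 FPKM at 0 h, 26.4 and 25.6 FPKM at 1 h and 40.2 and 41.2 FPKM at 2 h, in RelA(TA2) cells at 14.8 and 12.8, then 24.8 and 24.1 and then 29.4 and 27.5 FPKM and in RelA(Ser276Ala) cells at 16.3 and 14.5, then 18.2 and 22.8 and then 28.2 and 25.9 FPKM. The log2 difference over the 3 times was -0.41 ± 0.07 (SE, adjusted p = 0.00268) in RelA(TA2) and -0.47 ± 0.07 (SE, adjusted p = 0.00112) in RelA(Ser276Ala). Rrad, a Ras-related GTPase, went the other way, from 3.57 and 3.63 to 6.37 and 6.05 FPKM in RelA(wt) and from 5.98 and 7.09 to 14.2 and 31.7 FPKM in RelA(TA2), with a 2 h log2 difference of 1.70 ± 0.28 (SE, adjusted p = 0.00947). Rrad met the order in RelA(TA2) but not in RelA(wt), so this 2 h difference can partly reflect the choice of genes. Without the second RelA(TA2) library at 2 h that difference was 1.14, and it still passed.

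**Figure D1:**
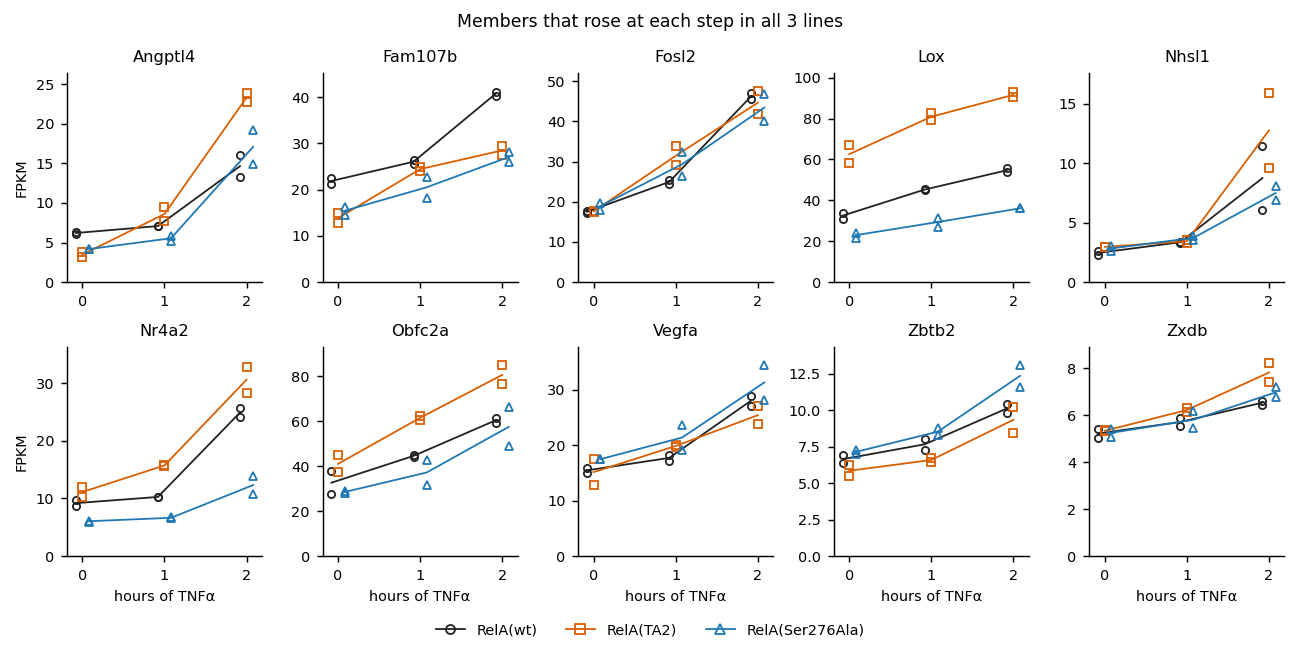
FPKM of the 10 genes that met the order in all 3 lines, by hours of TNFα. Each open mark is a library and each line joins the means of 2 libraries. Lox keeps the order RelA(TA2), RelA(wt), RelA(Ser276Ala) at all times, Nr4a2 is lowest in RelA(Ser276Ala), and Nhsl1 climbs in FPKM only (its recovered fragments fell below their 0 h values).

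In FPKM most of the climb came in the second hour. Among the genes that met the order in a line the median ratio of 2 h to 0 h was 1.74 for RelA(wt), 2.11 for RelA(TA2) and 1.73 for RelA(Ser276Ala), and a ratio over 2 was reached by 17 of 42, 23 of 44 and 15 of 44 genes. The median share of the FPKM gain that fell after 1 h was 69.2%, 64.8% and 66.6%. More of the gain came after 1 h than before it for 35 of 42 genes in RelA(wt), 33 of 44 in RelA(TA2) and 36 of 44 in RelA(Ser276Ala). For recovered fragments of the genes that gained any, the median shares were 67.1%, 54.8% and 70.1%. More of that gain came after 1 h for 29 of 39, 25 of 42 and 33 of 42 genes, so the pattern was weaker in RelA(TA2). Nr4a2 gained 93.2% of its FPKM after 1 h in RelA(wt), Ripk2 92.6% and Hk2 90.4%. At the other end Wdr92 gained 17.4% after 1 h in RelA(wt), and in RelA(TA2) Maff gained 12.5% and Id3 14.6%.

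**Figure D2:**
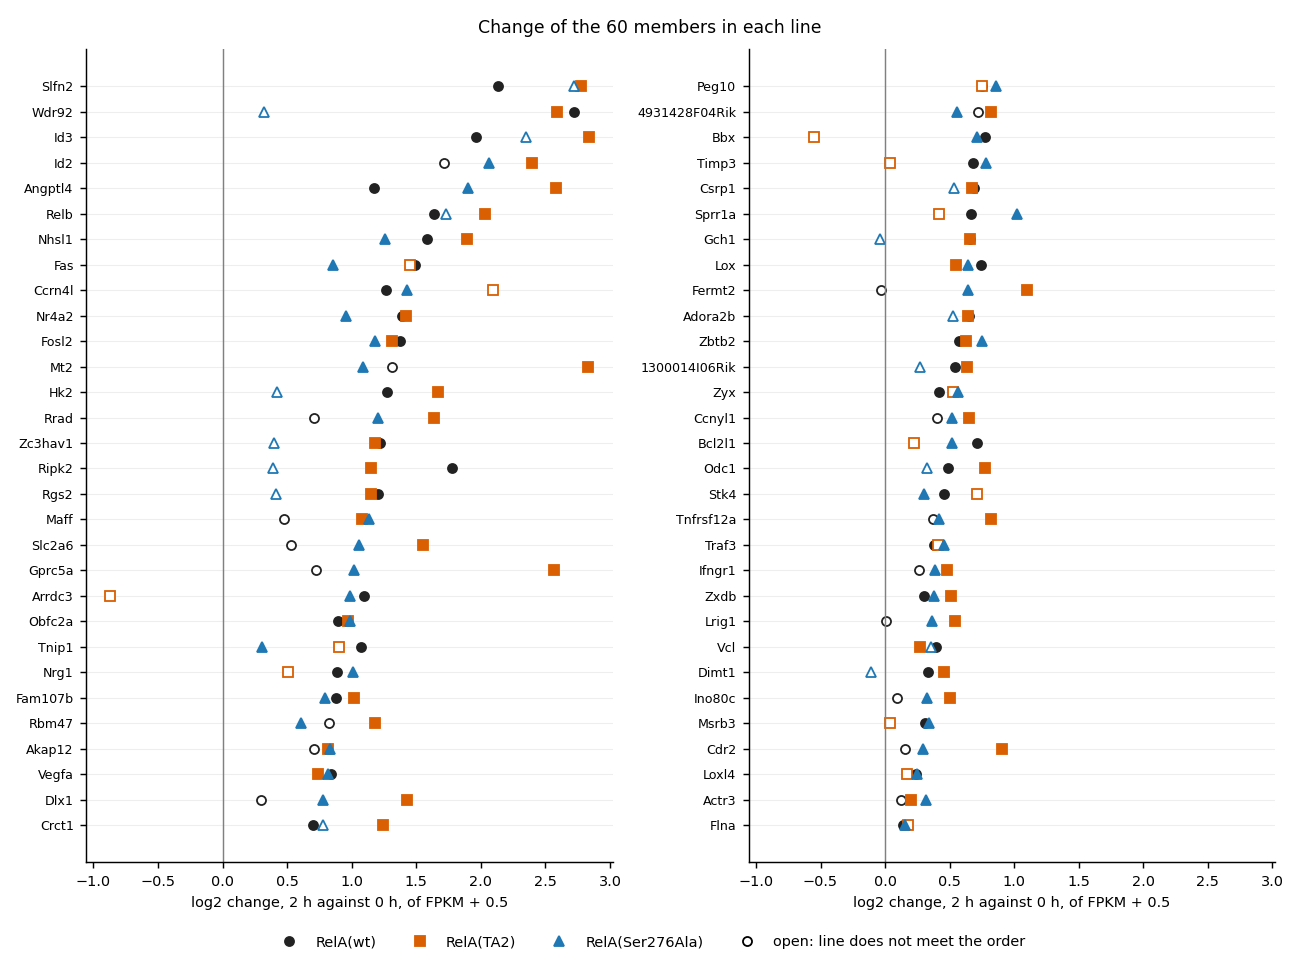
Log2 change of FPKM + 0.5 from 0 h to 2 h for the 60 genes, ordered by the median of the 3 lines. Filled marks are lines that met the order and open marks are lines that did not. Nearly all marks lie to the right of 0, and the marks furthest to the left are Arrdc3 and Bbx in RelA(TA2).

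The line that failed the order still tended to have both 2 h libraries above both 0 h libraries. That was so for 13 of the 18 genes that failed in RelA(wt), with 5 overlapping, for 12 of 16 in RelA(TA2), with 3 overlapping and 1 below, and for 13 of 16 in RelA(Ser276Ala), with 3 overlapping. Bbx, a high-mobility-group transcription factor, was the only gene with both 2 h libraries below both 0 h libraries in a line. Bbx in RelA(TA2) cells was at 7.24 and 8.86 FPKM at 0 h, 9.08 and 8.31 FPKM at 1 h and 5.12 and 5.48 FPKM at 2 h. Bbx in RelA(wt) cells was at 7.59 and 7.52, then 8.65 and 9.07 and then 13.3 and 13.3 FPKM, and in RelA(Ser276Ala) cells at 7.76 and 8.13, then 8.42 and 9.95 and then 12.6 and 14.1 FPKM. Rgs2, which speeds the shut-off of Gq signals, had its highest FPKM at 1 h in RelA(Ser276Ala) cells, with 8.80 and 9.57, then 22.9 and 19.3 and then 13.5 and 11.3 FPKM, while the FPM of its 1 h libraries (23.7 and 30.2) overlapped those at 2 h (24.9 and 20.3), and it climbed in RelA(wt) cells, with 6.90 and 8.16, then 10.3 and 9.93 and then 16.7 and 19.3 FPKM. Slfn2 of the Schlafen family was listed at 0 in both 0 h libraries of RelA(Ser276Ala) and in 1 of the 1 h libraries, and the other 1 h library gave 7.55 FPKM, the 2 h libraries 3.94 and 1.96 FPKM. Slfn2 in RelA(TA2) cells was at 1.64 and 1.49, then 8.30 and 6.82 and then 11.4 and 16.2 FPKM. No Slfn2 difference between lines passed in FPKM. In FPM that 1 h library held 0.936, and the 2 h libraries held 1.21 and 1.10 in RelA(Ser276Ala) beside 17.3 and 20.1 in RelA(wt). With recovered fragments the RelA(Ser276Ala) line was lower at 2 h, with -3.53 ± 0.35 (SE, adjusted p = 5.87e-05), and RelA(TA2) was higher over the 3 times, with 0.67 ± 0.20 (SE, adjusted p = 0.0205). Slfn2 met the order in RelA(wt) but not in RelA(Ser276Ala), so the 2 h difference between these lines can partly reflect the choice of genes. Reads shared with other Schlafen genes may have been split.

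Summed FPKM can also move when a gene is assembled in another number of pieces, so the fragments behind each value were recovered and expressed as FPM. With recovered fragments 45 of the 60 genes kept the order in at least 2 lines, 18 of them in all 3 lines, 12 kept it in 1 line and 3 in none (Nhsl1, Bbx and Zc3hav1). Nhsl1 in RelA(wt) cells was at 2.65 and 2.26 FPKM at 0 h, 3.41 and 3.30 FPKM at 1 h and 11.5 and 6.04 FPKM at 2 h, while its FPM were 17.4 and 16.2 at 0 h, 23.6 and 23.6 at 1 h and 7.33 and 8.92 at 2 h. The FPKM climbed 3.56-fold and the fragments ended at 0.483-fold of their start. It was assembled as 1 transcript in both 0 h libraries, 2 in both 1 h libraries and 7 and 5 in the 2 h libraries of RelA(wt), and the part of this in the FPKM was not tested. Zc3hav1, a zinc-finger antiviral protein that binds RNA, was at 33.7 and 34.99 FPKM at 0 h, 39.5 and 39.00 FPKM at 1 h and 79.3 and 82.2 FPKM at 2 h in RelA(wt) cells, with 176 and 182, 196 and 197 and 145 and 147 FPM. Bbx in RelA(wt) cells had 73.5 and 72.8, 82.8 and 89.7 and 56.6 and 61.3 FPM. In RelA(wt) cells FPKM and fragments of these 3 genes moved in opposite directions from 0 h to 2 h, and no rise of their message is claimed here.

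Single libraries could be moved the same way. Arrdc3, an arrestin-domain protein, was at 56.6 and 2.38 FPKM in the 2 unstimulated RelA(TA2) libraries and at 8.86 and 9.66 FPM. Arrdc3 in fragments climbed in that line too, to 25.3 and 32.1 at 2 h. Maff, a small Maf factor that lacks a transactivation domain, was at 42.1 and 19.4 FPKM at 0 h in RelA(wt), at 9.89 and 9.98 FPKM in RelA(TA2) and at 10.7 and 10.7 FPKM in RelA(Ser276Ala). Its FPM at 0 h were 37.8 and 40.7, 37.5 and 37.9 and 40.9 and 41.1. The call of lower Maff at 0 h in RelA(TA2), -1.48 ± 0.27 (SE, adjusted p = 0.0146), was not made with fragments, where the difference was -0.06 ± 0.10 (SE, adjusted p = 0.742). Maff met the order in RelA(TA2) but not in RelA(wt), so its 0 h difference in FPKM can partly reflect the choice of genes. It overlaps Tmem184b on the other strand.

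**Figure D3:**
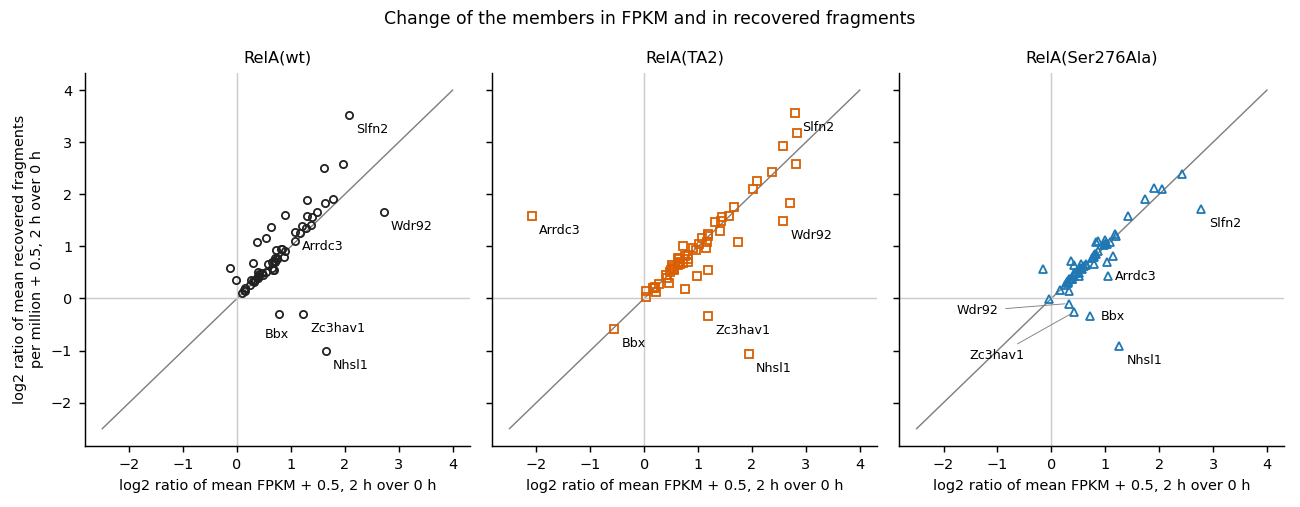
Change from 0 h to 2 h of the 60 genes in each line, as the log2 ratio of mean FPKM (x) and of mean FPM (y), each with 0.5 added. The grey diagonal marks equal change. Most genes lie along it, Nhsl1, Bbx and Zc3hav1 lie below 0 in fragments in all panels, and Arrdc3 departs in RelA(TA2).

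Wdr92 had the largest 2 h difference of the set between lines in FPKM, and its climb rests on a single stretch of its locus. Wdr92 in RelA(wt) cells was at 34.7 and 32.9 FPKM at 0 h, 189 and 196 FPKM at 1 h and 225 and 227 FPKM at 2 h. Wdr92 in RelA(TA2) cells went from 38.2 and 31.2 FPKM at 0 h to 124 and 130.4 FPKM at 1 h and ended close to RelA(wt), while it was in RelA(Ser276Ala) cells at 21.99 and 21.5, then 27.9 and 25.7 and then 26.6 and 27.9 FPKM. In every library it was assembled as a transcript of 8 exons and a separate piece of 1 exon, 497 to 599 bases long, within chr11:17234290-17234916 (mm10, plus strand). The 8-exon transcript stayed between 9.48 and 15.7 FPKM in all 18 libraries. The separate piece was at 22.4 and 21.4 FPKM at 0 h, 175.8 and 183.6 FPKM at 1 h and 215.1 and 216.6 FPKM at 2 h in RelA(wt). The same piece was at 26.4 and 17.9, 113.7 and 118.3, and 189.4 and 210.5 FPKM in RelA(TA2), and at 7.999 and 7.15, 12.2 and 11.97, and 14.7 and 15.5 FPKM in RelA(Ser276Ala). It lies in the last exon that the merged annotation gives Wdr92 (17232707 to 17235200), beyond the end of the gene in GENCODE M21 (17233796), which has 0 genes over the piece. At 2 h the log2 difference of RelA(Ser276Ala) from RelA(wt) was -3.03 ± 0.10 (SE, adjusted p = 9.66e-08) for the summed FPKM and -1.79 ± 0.07 (SE, adjusted p = 1.3e-07) for fragments. Wdr92 met the order in RelA(wt) but not in RelA(Ser276Ala), so this difference can partly reflect the choice of genes.

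**Figure D4:**
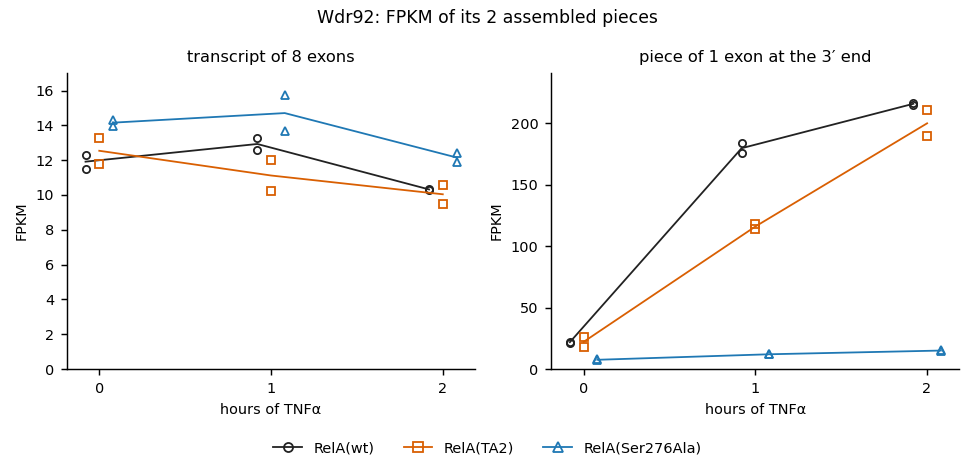
FPKM of the 2 assembled pieces of Wdr92 by hours of TNFα, each mark a library and each line the mean of 2. The 8-exon transcript stays within 9.48 to 15.7 FPKM, and the 1-exon piece climbs to over 189 FPKM in RelA(wt) and RelA(TA2) but stays under 16 FPKM in RelA(Ser276Ala).

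Levels of the set were then compared between each mutant line and RelA(wt), with limma on log2(FPKM + 0.5) over 12355 genes and an adjusted p under 0.05 as the threshold. At 0 h RelA(TA2) cells had 7 of the 60 genes lower (Angptl4, Dlx1, Fam107b, Id2, Id3, Maff, Sprr1a) and 4 higher (Csrp1, Lox, Msrb3, Timp3), which is 11.7% and 6.67%, where 1.44% and 2% of all genes were called. At 2 h 3 were lower (Bbx, Fam107b, Sprr1a) and 7 higher (Akap12, Angptl4, Csrp1, Lox, Mt2, Rrad, Stk4), against 1.49% and 1.42% of all genes. Over the mean of the 3 times 6 were lower and 13 higher, against 5.9% and 5.46%. The median log2 difference of the set at 2 h was 0.20, beside 0.01 over all genes. Without the second RelA(TA2) library at 0 h 1 gene in place of 7 was called lower and 2 in place of 4 were called higher at 0 h, and without the first RelA(wt) library at 0 h the counts were 4 and 1. Without the second RelA(wt) library at 0 h 2 were called higher. At 2 h the 7 higher calls dropped to 3 or 4 without any 1 of 13 libraries, and Lox, Mt2 and Rrad were kept without each library in turn. Over the 3 times 10 genes were lower without the first RelA(TA2) library at 0 h.

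In RelA(Ser276Ala) cells the calls went mostly down. At 0 h 4 genes were lower (Lox, Maff, Sprr1a, Wdr92) and 0 higher, against 1.13% and 0.987% of all genes called. Of these 4 calls 0 held under every other setting, and those of Maff and Wdr92 were not made with recovered fragments. The FPM of Wdr92 at 0 h were 34.2 and 31.55 in RelA(wt) and 32.1 and 32.06 in RelA(Ser276Ala). At an unadjusted p under 0.05, 17 were lower and 1 higher, where 5.9% and 7.37% of all genes were. At 2 h 10 were lower (Fam107b, Fas, Hk2, Lox, Nr4a2, Ripk2, Sprr1a, Tnip1, Wdr92, Zc3hav1) and 0 higher, against 1.76% and 1.63%, and at an unadjusted p under 0.05 the counts were 15 and 3, where 8.17% and 9.34% of all genes were. With recovered fragments the 2 h counts were 22 lower and 4 higher, where 12.6% and 15.1% of all genes were called. Over the 3 times 12 were lower and 3 higher (Actr3, Mt2, Rrad), against 5.29% and 6.99%. The median log2 difference of the set at 2 h was -0.10, beside 0.02 over all genes. Without the second RelA(wt) library at 2 h, 6 genes in place of 10 were called lower at 2 h. Without the second RelA(wt) library at 0 h 7 genes were lower at 0 h, and without the second RelA(Ser276Ala) library at 0 h 2 were. The 3 higher calls over the 3 times dropped to 1 without the second RelA(wt) library at 1 h or at 2 h or the first RelA(Ser276Ala) library at 0 h.

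The choice of genes used the 0 h, 1 h and 2 h levels of each line, so the counts are also given for genes that met the order in both lines compared. At 0 h 3 of the 26 such genes were lower and 2 higher in RelA(TA2), and 2 of 26 were lower and 0 higher in RelA(Ser276Ala). Among the other 0 h calls in RelA(TA2), Dlx1, Id2 and Maff met the order in RelA(TA2) but not in RelA(wt). Msrb3, Timp3 and Sprr1a met it in RelA(wt) but not in RelA(TA2). Of the 26 genes that met the order in both RelA(Ser276Ala) and RelA(wt), 6 were lower in RelA(Ser276Ala) at 2 h and 0 higher. Of the 26 that met it in both RelA(TA2) and RelA(wt), 1 was lower and 3 were higher at 2 h. Among the other 2 h calls, Ripk2, Wdr92, Hk2 and Zc3hav1 met it in RelA(wt) but not in RelA(Ser276Ala). Akap12, Mt2 and Rrad met it in RelA(TA2) but not in RelA(wt). Stk4, Bbx and Sprr1a met it in RelA(wt) but not in RelA(TA2). The order also keeps genes with close replicates, with a median SD between replicates of 0.15 on the log2 scale against 0.31 over all genes, so that a difference of a given size passes more often in the set than elsewhere. With recovered fragments, whose SD was 0.10 over all genes and 0.11 in the set, 9 of the 10 calls at 2 h in RelA(TA2) and 9 of the 10 in RelA(Ser276Ala) were made again in the same direction. The calls not made again were Bbx in RelA(TA2), with a fragment difference of -0.22 ± 0.10 (SE, adjusted p = 0.14), and Zc3hav1 in RelA(Ser276Ala), with -0.35 ± 0.23 (SE, adjusted p = 0.292).

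**Figure D5:**
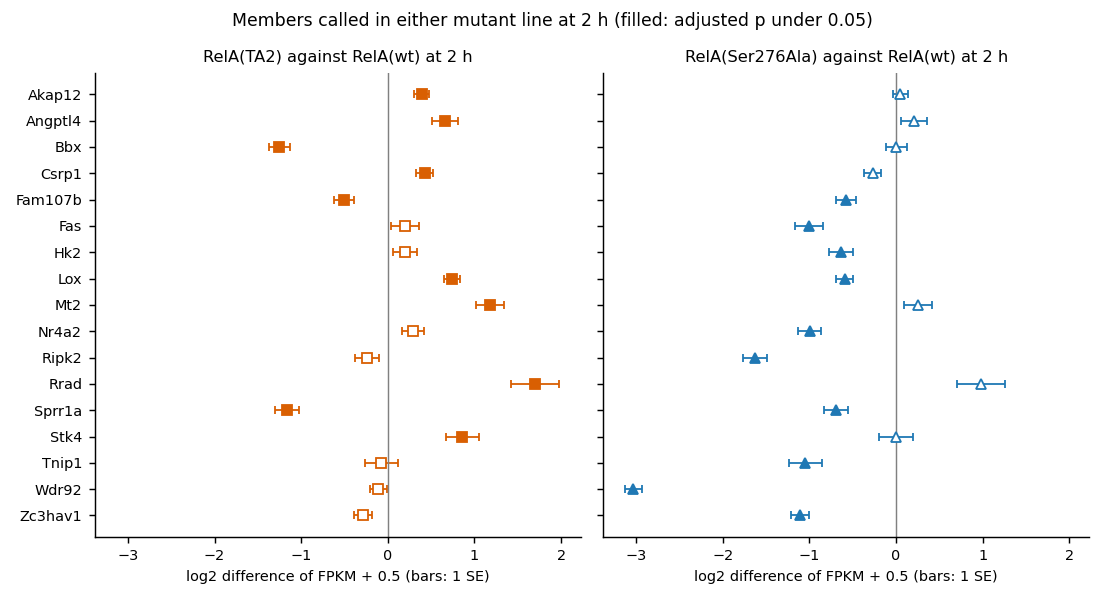
Log2 difference of FPKM + 0.5 from RelA(wt) at 2 h for the 17 genes called in either mutant line, with bars of 1 SE; filled marks have an adjusted p under 0.05. Both panels use the same RelA(wt) libraries. In RelA(TA2) 7 filled marks lie above 0 and 3 below, and in RelA(Ser276Ala) all 10 lie below, Wdr92 furthest.

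Other genes of the lists to which these genes belong were tested at 2 h against 0 h. Over all genes 1.28% rose and 0.453% fell in RelA(wt), 1.76% and 1.91% in RelA(TA2) and 0.696% and 0.299% in RelA(Ser276Ala). Of the 28 other genes of the NF-κB and TNF receptor list 3 rose in RelA(wt) (Nfkbib, Nfkbie and Tnip3), 2 rose (Nfkbia and Tnfaip3) and 1 fell (Tnfrsf1a) in RelA(TA2), and 1 rose in RelA(Ser276Ala) (Nfkbia). At an unadjusted p under 0.05, 9, 11 and 6 of them were higher and 1, 2 and 1 lower. A gene not named for a line missed the threshold, which does not show that its level stayed the same. By qRT-PCR the study found Nfkbia and Tnfaip3 induced in RelA(wt) cells and reduced in RelA(TA2) cells. Of the 28 other cytokines, growth factors and receptors 5, 8 and 5 rose in the 3 lines, and Lif, a cytokine of the IL-6 family, rose in each, by 1.86, 2.70 and 2.11 on the log2 scale. Among the 35 other immediate-early and transcription factors 5, 6 and 3 rose, Id1, the relative of Id2 and Id3, by 2.82, 2.98 and 2.74, and Egr1 fell by 2.07 in RelA(TA2). Of the 20 other matrix and protease genes 3, 5 and 3 rose. The counts were 0, 1 and 2 of the 17 other actin and SRF genes by limma (10, 5 and 8 at an unadjusted p under 0.05), and 0 of the 13 other metabolic genes were called by limma (2, 2 and 1 higher at an unadjusted p under 0.05), their median log2 changes being 0.00, 0.43 and 0.14 beside -0.04, -0.05 and -0.04 over all genes. The remaining lists with members gave, with the lines in the same order, 4, 6 and 1 rising of 26 other signalling feedback genes, 3, 4 and 2 of 17 other survival genes, and 2, 0 and 0 of 13 other acute-phase genes (5, 2 and 0 at an unadjusted p under 0.05).

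Lists with no gene in the set were the interferon-stimulated genes (3, 3 and 1 rising of 31, and 3 falling in RelA(TA2), Ifit2, Ifit3 and Usp18), adhesion molecules (2, 4 and 0 of 14 by limma, with 3 in the last line at an unadjusted p under 0.05), mRNA decay regulators (0, 0 and 0 of 18 by limma, 0, 0 and 1 at an unadjusted p under 0.05, and Btg2 falling in RelA(wt)), prostaglandin genes (2, 0 and 1 of 10, or 2, 4 and 2 unadjusted), ribosome biogenesis genes (0, 1 and 0 of 28, or 1, 10 and 1 unadjusted) and stress response genes (1, 1 and 1 of 26, and 4 falling in RelA(TA2), Atf4, Chac1, Sesn2 and Herpud1).

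The genes of the set were of ordinary size. Their median span was 21201 bases against 21936 over the genes tested, their median exonic length 2974 against 3151 bases and their median number of exons 7 against 9. Spans over 100 kb were found for 7 of them (11.7%, against 11.9%), the longest being Bbx at 240546 bases. Their median level at 0 h was 16.2 FPKM against 11.6 FPKM. They lie on 19 chromosomes. 4931428F04Rik was joined with Nol3 in an assembled transcript, so its value is shared with that neighbour, and Dlx1 overlaps the antisense gene Dlx1as.

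The members not described above were 1300014I06Rik (now Pxdc1), Adora2b (an adenosine receptor), Bcl2l1 (Bcl-xL, which protects from apoptosis), Ccnyl1, Ccrn4l (now Noct), Cdr2, Dimt1, Gprc5a, Ifngr1 (a chain of the interferon-γ receptor), Ino80c, Lrig1 (which overlaps Slc25a26), Msrb3 (a methionine sulfoxide reductase, overlapped by Gm15910), Peg10, Rbm47 and Stk4. Bcl2l1 went from 19.6 and 18.6 to 31.4 and 31.8 FPKM in RelA(wt) and from 19.9 and 19.1 to 30.1 and 26.2 FPKM in RelA(Ser276Ala), and dipped at 1 h in RelA(TA2), with 23.1 and 24.03, then 21.1 and 19.4 and then 28.2 and 26.9 FPKM. Ccrn4l, a deadenylase-related protein, was at 14.4 and 13.6, then 70.3 and 47.4 and then 67.5 and 55.9 FPKM in RelA(TA2), where 1 h already reached the 2 h level. The lowest qualifying 2 h values were those of Arrdc3 (3.78 FPKM) and Nrg1 (5.13 FPKM), and the gene just outside was Socs2, whose lowest 2 h value was 0.999 FPKM.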

How the data were processed

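RNA of 18 fibroblast libraries was sequenced by the submitters on an Illumina instrument after TruSeq preparation. Per the labels and methods, the authors used TopHat2 (2.0.5) on the mm10 genome, with Bowtie2 (2.0.0.7) beneath it, and built the transcripts of each library by Cufflinks (2.0.2). The deposited assemblies give FPKM per transcript with its confidence bounds, and no read counts. Strandedness is not given in the sources used here. The authors' own fold changes and p-values (Cuffdiff) were not used. FPKM of transcripts matching RefSeq exons were summed per gene. Fragments were recovered from the confidence bounds, and 92.0% to 93.2% of recovered counts below 500 lay within 0.02 of a whole number. Differences were fitted in R 4.3.3 by limma 3.58.1, taking log2(FPKM + 0.5), with a mean-variance trend over 12355 genes, 9 condition means and 9 residual degrees of freedom, two-sided, with Benjamini-Hochberg adjustment and a threshold of 0.05. The fold change of low genes is understated on this scale. The procedure was tested on simulated data. Named genes are those that met the order in all 3 lines, those on the gene lists, up to 6 called genes per comparison and direction with the smallest adjusted p, the 5 highest at 2 h and those at the threshold. Slfn2, Rgs2, Crct1, Slc2a6, Loxl4 and Ccrn4l were singled out after their values were seen. The members and lists were chosen with earlier results of these data known. Alternatives were pseudocounts, filters, scaling, the highest transcript, recovered fragments, a replicate block and leaving out libraries.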

Additional observations from a re-analysis of the deposited data

Results flagged for a closer look

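Bbx moved in the other direction in 1 line. Its FPKM at 2 h over that at 0 h was 0.659 in RelA(TA2), with both 2 h libraries below both 0 h libraries, while both 2 h libraries lay above both 0 h libraries in RelA(wt) and RelA(Ser276Ala), with ratios of 1.76 and 1.68. The difference between these ratios was not tested. In fragments recovered and scaled to those in genes, Bbx was lower at 2 h than at 0 h in all 3 lines.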

How the results depend on the processing

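Of the 69 calls between lines, 41 held without each library in turn, 36 under every other setting and 24 under all. Changing the pseudocount to 0.1 or to 1 kept 68 calls each, no filter 69, 67 held with a minimum of 5 FPKM, 66 after median-of-ratios scaling, the replicate block 65, recovered fragments 60 and the highest transcript 46. The order gave 94 genes with median-of-ratios scaling (57 of the 60 among them), 131 with recovered fragments (45), 58 with the highest transcript (35), 48 with a stricter match of transcripts to genes (42), 10 when asked in all 3 lines, and 63 to 91 without 1 library (91 without the first RelA(Ser276Ala) library at 1 h). Chosen after seeing the data, leaving out the first RelA(TA2) library at 0 h and the first RelA(Ser276Ala) library at 1 h, each with 95.8% of assembled fragments in genes, gave 146, and RelA(TA2) then had 10 genes lower over 3 times. With recovered fragments, RelA(TA2) had 12 higher at 0 h, 5 lower at 2 h, and 12 lower and 23 higher over 3 times, and RelA(Ser276Ala) had 11 lower and 3 higher at 0 h, 22 and 4 at 2 h, and 28 and 9 over 3 times. Of all genes with fragments 12.8% were higher at 0 h, 12.2% lower at 2 h, and 21.3% lower and 21% higher over 3 times in RelA(TA2), and 7.12% lower and 9.62% higher, 12.6% and 15.1%, and 21.2% and 24.6% in RelA(Ser276Ala), so that the 5 and the 12 lower in RelA(TA2) were at or below that background. Scaling by median of ratios and the replicate block each left 4 higher in RelA(TA2) at 2 h. Counting the highest transcript left RelA(Ser276Ala) 0 lower at 0 h, and 5 lower and 1 higher at 2 h. Reversed were Maff with fragments (0.028 in RelA(TA2) over 3 times, 0.064 in RelA(Ser276Ala) at 0 h) and Actr3 with the highest transcript (-0.008 in RelA(TA2) over 3 times), and the cause was not tested. Without 1 library the counts of lower and higher genes in RelA(TA2) were 1 to 9 and 1 to 6 at 0 h, 2 to 4 and 3 to 7 at 2 h, and 5 to 10 and 10 to 14 over 3 times. In RelA(Ser276Ala) they were 2 to 7 and 0 to 0, 6 to 12 and 0 to 1, and 10 to 14 and 1 to 4. Replicate numbers did not pair the samples, since the deviations of 36 pairs of same-numbered libraries correlated at -0.077 to 0.082. A gene near the spread of 2 libraries per condition could not be called.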
